A study of Rattus norvegicus with 4 samples.

Results

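The constitutive proteasome subunit genes were followed in 4 rat kidney sections. They were chosen by symbol: every feature named Psma, Psmb, Psmc, Psmd or Psme with a number, without pseudogene names and without the interferon-induced subunits Psmb8, Psmb9 and Psmb10. The rule took 41 of 32402 features: 8 Psma, 8 Psmb, 7 with a Psmc symbol, 14 Psmd and 4 Psme. It uses no measured value. Psmc3ip, which the rule takes by its symbol, encodes a recombination protein that interacts with Psmc3 and is no subunit, so 40 genes were grouped by role and Psmc3ip entered only the counts and sums over all genes. In the cortex, 38 of the 41 reached 50 UMIs over both sections (a UMI, or unique molecular identifier, tags a captured RNA molecule so that its copies count once) in every comparison. Psma8, the testis subunit, had 0 to 4 UMIs per section, Psmb11, the thymus subunit, had none, and Psmd10, a chaperone of base assembly, had 0 to 1. Whether counting missed Psmd10 was not tested, and so low a count does not show that the gene is not expressed.

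Frozen kidneys of Sprague-Dawley rats were cut at 10 µm and their RNA was captured in spots on Visium slides, with 1 section per group. PAN had received puromycin aminonucleoside (the labels call it a puromycin injection), a podocyte toxin, and was taken 5 months after injection and 6 weeks after the treatment period. PAN_LS-FMD had the same injection and times, with 6 cycles of LS-FMD, a low-salt fasting-mimicking diet. healthy_LS-FMD had no injection and 1 cycle of LS-FMD with 72 hours of refeeding, and healthy had no treatment. The same times of 5 months and 6 weeks are listed for healthy_LS-FMD and healthy, although neither was injected. The toxin strikes podocytes first, and the dieted groups differ in the number of cycles as well as in the injection. A refeeding time is given for healthy_LS-FMD only, so the time from diet to sampling may differ too. With 1 section per group, no difference could be set against the spread between animals, and the 95% intervals below cover the error of counting alone.

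The proteasome degrades proteins marked with ubiquitin. Its core particle is a stack of Psma and Psmb rings with the protease sites inside, and the regulatory particle, built from the Psmc ATPases and the Psmd proteins, binds ubiquitin chains, unfolds the substrate and feeds it in. Psme proteins make activators that cap the core in place of the regulatory particle: Psme1 and Psme2 form PA28, which interferon gamma induces together with Psmb8, Psmb9 and Psmb10, while Psme3 and Psme4 form separate nuclear activators. In the kidney, tubule cells rely on this system beside lysosomes to turn over damaged and short-lived proteins.

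Upstream sequences from RefSeq (build GRCr8) were matched by symbol for 36 of the 41 genes. The pieces below belong to the genes whose levels differed most between sections, with Psmb5 beside them as another catalytic gene. They end before the outermost RefSeq start of the gene, or hold 30 bases around a motif where the motif lies inside that span. Capitals mark matches to the interferon-stimulated type (GAAA, any 2 bases, GAAA) or to the antioxidant response type (TGACNNNGC).
Psme1, chr15:33038721-33038961, plus strand: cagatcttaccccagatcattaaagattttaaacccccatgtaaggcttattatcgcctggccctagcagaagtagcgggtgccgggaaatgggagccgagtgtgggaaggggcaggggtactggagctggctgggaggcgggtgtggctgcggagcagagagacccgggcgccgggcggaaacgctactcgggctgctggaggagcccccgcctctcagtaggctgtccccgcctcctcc
Psme2, chr15:33052785-33052814, minus strand: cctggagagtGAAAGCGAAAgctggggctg
Psmb5, chr15:32047380-32047629, minus strand: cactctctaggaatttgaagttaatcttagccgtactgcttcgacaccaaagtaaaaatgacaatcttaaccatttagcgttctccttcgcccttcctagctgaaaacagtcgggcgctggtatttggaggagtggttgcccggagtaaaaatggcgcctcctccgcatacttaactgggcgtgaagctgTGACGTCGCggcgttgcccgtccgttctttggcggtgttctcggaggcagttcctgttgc
Psmb6, chr10:55737853-55737882, plus strand: actaaagagagTGACGGAGCgctttacgac

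Motifs were searched on both strands in the 250 bases before each start. The interferon-stimulated type stood before 4 of the 36 genes (Psma4, Psmb3, Psmd7 and Psme2), which is 11.1%, against 3.41% of 33469 promoters. TGACNNNGC stood before 7 of them, 19.4%, against 10.1% of all promoters, among them Psmb5, Psmb6 and Psme4. Psmb7, also a catalytic gene, did not hold that motif. TTCNNNGAA, the gamma-activated type, stood before 3 (Psmc6, Psmd3 and Psmd7), 8.33% against 7.67%, and CCAAT before 18, 50% against 34.0%. No searched motif was found in the window of Psme1. Psme1 and Psme2 are neighbours on chromosome 15, 6602 bases apart with no RefSeq gene lying wholly between them. The motif matches are descriptions of letters and were not tested as sites.

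The sections held 24925280 UMIs (PAN), 34966981 (PAN_LS-FMD), 25331233 (healthy_LS-FMD) and 58569311 (healthy). Kidney markers were present: podocyte genes summed to 199, 721, 637 and 466 CPM (UMIs per 1000000 UMIs of the same spots) in the cortical spots of those sections, with Synpo at 0 in the first 3. The main values are from cortical spots, 1233, 905, 776 and 1043 of them with 6475983 to 18850332 UMIs, chosen by clustering without the subunit genes. A cluster of PAN cortical spots was led by Car3, Ltbp2, Cyr61, Lum and Tnc, and values without it are called strict cortex. The cortical pools also differ in another cell population: a cluster with Klk1c9, Calb1 and Slc26a4 among its leading genes was cortical in PAN (143 spots) and healthy (291 spots), but blood-rich in PAN_LS-FMD (142 spots) and medullary in healthy_LS-FMD (100 spots). The matrix of the healthy section was made with a later Space Ranger version (2.0.1) than the other 3 (1.2.1), and this section was also the deepest and held 1.59% haemoglobin UMIs against 0.161 to 0.234% in the others. In each comparison with healthy, the group, the version and the depth cannot be told apart. In sections, fewer cells of a type and less RNA per cell cannot be told apart either.

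The subunit genes made up a small share of the cortical RNA. They summed to 5710 CPM in PAN, 5093 in PAN_LS-FMD, 5001 in healthy_LS-FMD and 4998 in healthy, or 0.571, 0.509, 0.50 and 0.50% of all UMIs. PAN over healthy was 1.14 (1.13 to 1.15) and PAN_LS-FMD over PAN 0.892 (0.882 to 0.902). PAN_LS-FMD over healthy was 1.02 (1.01 to 1.03) and healthy_LS-FMD over healthy 1.00 (0.988 to 1.01). These directions depend on the scale: with median-of-ratios size factors in place of total UMIs the same folds were 0.860, 1.03, 0.885 and 0.825. Over all measured features the median log2 fold was 0.44, -0.24, 0.19 and 0.26 in these comparisons, so the typical gene itself was shifted on the CPM scale. The median of the measured subunit genes was 0.20, -0.10, 0.018 and 0.031 on the same log2 scale.

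Ratios within a section do not depend on that scale. Core over regulatory particle, the summed UMIs of Psma and Psmb genes over those of Psmc and Psmd genes, was 1.13 (1.11 to 1.15) in PAN and 1.15 (1.13 to 1.17) in PAN_LS-FMD, whose intervals overlap. It was 1.10 (1.07 to 1.12) in healthy_LS-FMD, overlapping PAN, and 1.22 (1.204 to 1.237) in healthy, which lay above all the others. Leaving Psmb6 out of the core gave 1.10, 1.11, 1.07 and 1.17 in the same sections, with healthy again highest. Within the core, the Psma to Psmb ratio was 0.985, 0.929, 0.971 and 0.887. Within the regulatory particle, ATPase over non-ATPase genes was 0.743, 0.713, 0.732 and 0.675, also lowest in healthy.

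Psme1 and Psme2 together stood apart from the core in PAN. Their summed UMIs over those of the core were 0.231 (0.225 to 0.237) in PAN, 0.156 (0.151 to 0.161) in PAN_LS-FMD, 0.166 (0.159 to 0.174) in healthy_LS-FMD and 0.147 (0.143 to 0.151) in healthy. The PAN ratio was 1.57 times that of healthy, and the PAN_LS-FMD ratio 0.676 times that of PAN. In strict cortex the PAN ratio was 0.225. Over the whole section the ratio was 0.231 in PAN, 0.153 in PAN_LS-FMD, 0.178 (0.174 to 0.182) in healthy_LS-FMD and 0.152 (0.150 to 0.154) in healthy. In medullary spots, whose clusters were partly led by genes of other lists, it was 0.264, 0.153, 0.221 and 0.167. healthy_LS-FMD thus lay above healthy in the cortex, in the medulla and over the whole section, which includes the cortex. In the outer stripe, the zone of the S3 proximal tubule, it did not, at 0.143 (0.138 to 0.149) against 0.145 (0.142 to 0.148). The blood-rich intervals overlapped, at 0.167 (0.152 to 0.184) in healthy_LS-FMD and 0.160 (0.152 to 0.169) in healthy.

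**Figure D1:**
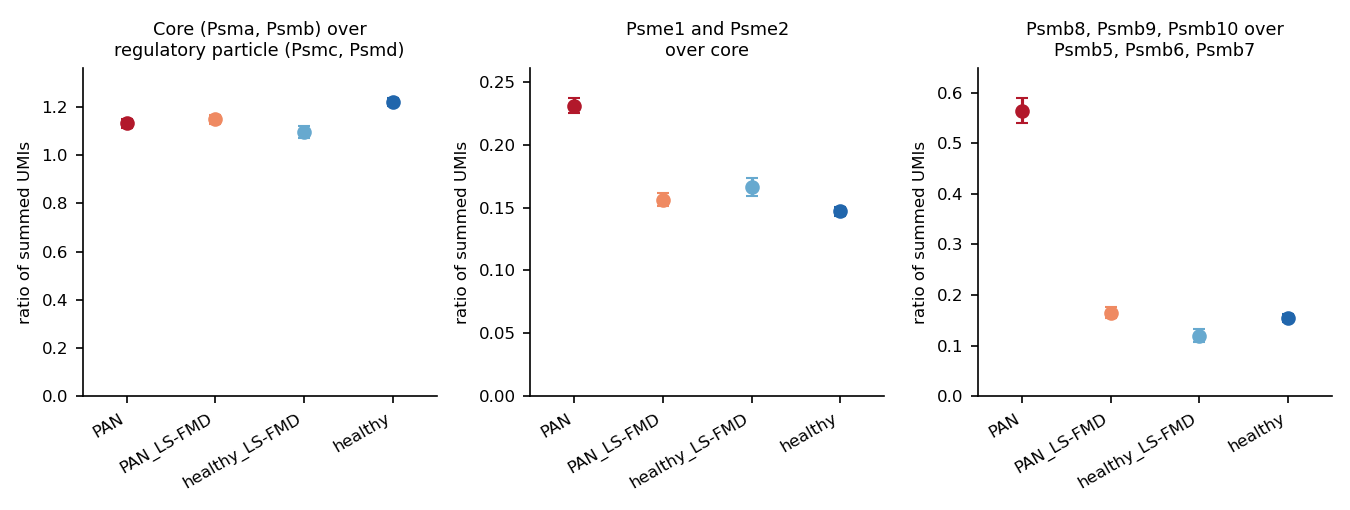
Ratios of summed UMIs in cortical spots (vertical axes, from 0) for each section, with 95% intervals of counting error as bars. Core over regulatory particle lay between 1.10 and 1.22, while Psme1 and Psme2 over core (0.231) and the interferon-induced subunits over Psmb5, Psmb6 and Psmb7 (0.564) were highest in PAN.

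Psme1, the alpha chain of PA28, had 430.5 CPM in PAN, 281.0 in PAN_LS-FMD, 289.5 in healthy_LS-FMD and 270.5 in healthy. Only PAN was high, and the other 3 sections lay close together. Psme2, the beta chain, had 171.9, 97.4, 94.5 and 92.5 CPM in the same order. Psme1 was 1.59-fold (1.53 to 1.66) and Psme2 1.86-fold (1.74 to 1.98) higher in PAN than in healthy. These were the only 2 of 38 measured subunit genes past 1.5-fold with an interval excluding 1, where 51.2% of all 10752 measured features were past it and 40.7% higher. In PAN_LS-FMD against PAN, Psme1 at 0.653 (0.625 to 0.682) and Psme2 at 0.567 (0.527 to 0.609) were again the 2 past that fold, both lower, against 37.3% of 10505 features, 27% being lower. In strict cortex PAN over healthy was 1.51 for Psme1 and 1.77 for Psme2, both past the fold, where 35.7% of 10467 features were higher. In PAN_LS-FMD over PAN there, Psme1 at 0.687 did not pass and Psme2 at 0.596 did, where 21.7% of features were lower. With every cortical cluster of the distal convoluted and connecting tubule list left out, the log2 folds of Psme1 and Psme2 were 0.61 and 0.84 in PAN over healthy and -0.51 and -0.72 in PAN_LS-FMD over PAN.

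The median-of-ratios scale kept both directions at smaller size. Psme1 was 1.198 and Psme2 1.40 in PAN over healthy, and 0.753 and 0.654 in PAN_LS-FMD over PAN. Psme2 in PAN_LS-FMD over PAN, where 19.7% of features were lower, was then the only value of these genes past the fold. On the CPM scale, PAN_LS-FMD over healthy was 1.04 for Psme1 and 1.05 for Psme2 with intervals that include 1 (0.994 to 1.09 and 0.977 to 1.13), and by median of ratios 0.902 and 0.914. Over the whole section on the CPM scale, PAN over healthy was 1.75 for Psme2, past the fold, and 1.47 for Psme1, which did not pass.

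The induced catalytic subunits, which the rule leaves out, were also highest in PAN. Psmb9 had 121.7 CPM in PAN, 35.2 in PAN_LS-FMD, 16.7 in healthy_LS-FMD and 35.0 in healthy, and Psmb10 144.3, 44.7, 38.0 and 45.5. PAN over healthy was 3.48 for Psmb9 and 3.17 for Psmb10, where 40.7% of features were higher past the fold. PAN_LS-FMD over PAN was 0.289 and 0.310, where 27% of features were lower. By median of ratios Psmb9 and Psmb10 also passed in these comparisons, where 22.1% of features were higher and 19.7% lower. In the cortex Psmb9 was also lower in healthy_LS-FMD than in healthy (0.477), where 5.42% of features were lower past the fold. Over all spots neither of the 2 measured induced genes passed the fold in that comparison. The third, Psmb8, had 1 to 5 UMIs per section, and whether counting missed it was not tested. The 3 together, in effect Psmb9 and Psmb10, amounted to 0.564, 0.165, 0.120 and 0.154 of the UMIs of Psmb5, Psmb6 and Psmb7, the constitutive subunits whose places they take. In healthy_LS-FMD this share was 0.775 times that of healthy in the cortex and 0.893 times in the outer stripe. It was 1.29 times that of healthy in medullary spots and 1.22 times in blood-rich spots.

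Summed markers of immune and matrix cells were also highest in PAN. In PAN cortical spots, 7 of 7 macrophage markers, 4 of 4 T cell markers and 4 of 4 measured B cell markers were past 1.5-fold higher than in healthy. Of all 10752 measured features, 40.7% were higher past the fold in that comparison. Macrophage markers summed to 1273 CPM in PAN, 369 in PAN_LS-FMD, 190 in healthy_LS-FMD and 202 in healthy. T cell markers summed to 84.1, 18.3, 6.18 and 10.1 CPM, and B cell markers to 1803, 205, 218 and 45.3 CPM with Ms4a1 at 0 outside PAN. Fibroblast and matrix markers (6 of 6 higher) summed to 2087, 324, 229 and 362 CPM, and injured tubule markers (5 of 6 higher) to 19867, 515, 687 and 469 CPM. In PAN_LS-FMD against PAN, all of these immune markers measured were past the fold lower, as were 27% of all features. The part of these cells in the levels of Psme1 and Psme2 was not tested.

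Psme3 and Psme4 followed another pattern. Psme3, which forms the nuclear PA28 gamma ring, had 79.3 CPM in PAN, 67.8 in PAN_LS-FMD, 84.2 in healthy_LS-FMD and 57.6 in healthy. Psme4, the PA200 activator that takes part in degrading histones, had 100.3, 102.4, 104.7 and 70.8 CPM. Healthy was the lowest section for both genes. Psme4 over healthy was 1.42 (1.31 to 1.53) in PAN, 1.45 (1.34 to 1.56) in PAN_LS-FMD and 1.48 (1.35 to 1.62) in healthy_LS-FMD. Psme3 over healthy was 1.38, 1.18 and 1.46 in those sections. None reached 1.5-fold, and by median of ratios Psme3 gave 1.04, 1.02 and 1.21 and Psme4 1.07, 1.26 and 1.22. These 3 comparisons share the healthy section.

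**Figure D2:**
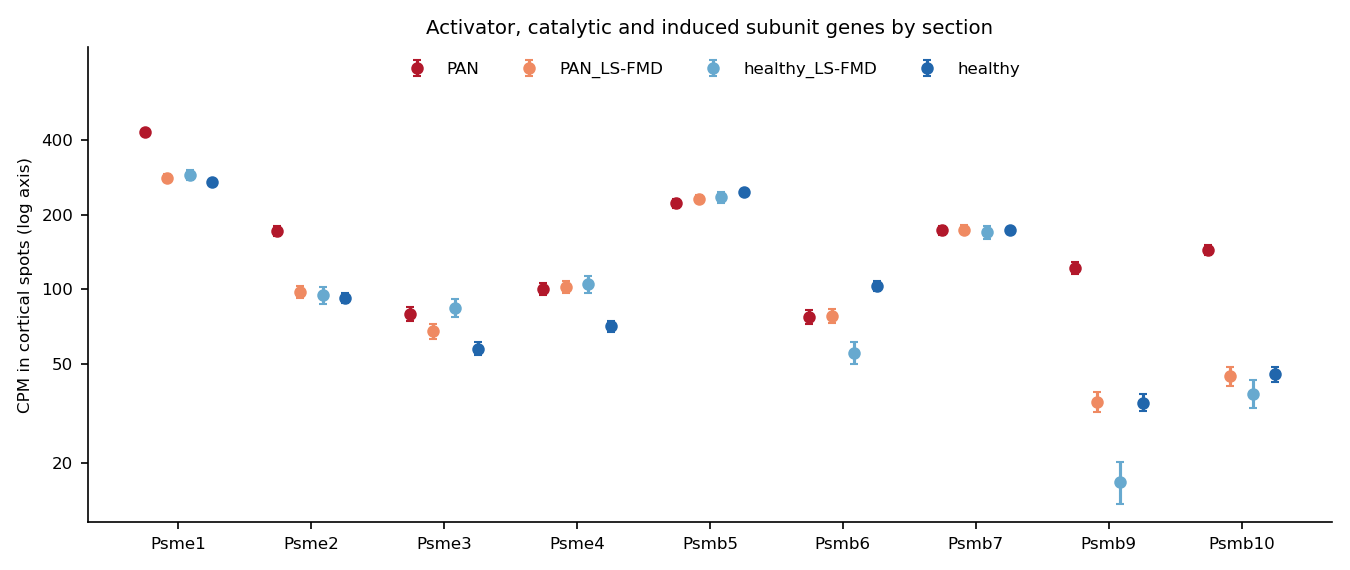
CPM in cortical spots (log axis) of the 4 activator genes, the constitutive catalytic genes Psmb5, Psmb6 and Psmb7, and the induced Psmb9 and Psmb10, 1 point per section with 95% counting intervals. Psme1, Psme2, Psmb9 and Psmb10 were highest in PAN, and Psmb6 was highest in healthy (103.3 CPM).

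The catalytic genes did not move as a set. Psmb5, the chymotrypsin-like site, had 222.0 CPM in PAN, 232.1 in PAN_LS-FMD, 234.6 in healthy_LS-FMD and 247.2 in healthy. Psmb7, the trypsin-like site, had 172.9, 174.0, 169.9 and 172.6 CPM, and its highest section was 1.02 times its lowest, the smallest spread among the 38 genes. Psmb6, the caspase-like site, had 77.2 CPM in PAN, 78.1 in PAN_LS-FMD, 55.4 in healthy_LS-FMD and 103.3 in healthy, a spread of 1.86.

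The healthy section had the highest Psmb6 level. healthy_LS-FMD over healthy was 0.537 (0.478 to 0.601), the only 1 of 38 genes past 1.5-fold in that comparison, where 26.3% of 10118 features were past it and 5.42% lower. PAN over healthy was 0.748 (0.690 to 0.810) and PAN_LS-FMD over healthy 0.756 (0.698 to 0.818), the lowest folds of the 38 genes in those comparisons. No subunit gene passed 1.5-fold in PAN_LS-FMD against healthy, where 13.2% of 10385 features did. With size factors the Psmb6 folds were 0.563 in PAN, 0.656 in PAN_LS-FMD and 0.443 in healthy_LS-FMD, each past the fold. Psmb6 was the only gene of the 38 past it in PAN, where 41.7% of features were in either direction and 22.1% higher. In PAN_LS-FMD it was again the only gene past it, where 5.66% of features were lower. RefSeq also lists a gene named Psmb6l1 that is not among the features, and how reads were split between such copies was not tested.

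On the CPM scale no other core gene passed the fold. In healthy_LS-FMD against healthy, Psma2 (0.805), Psmb2 (0.799) and Psmb4 (0.813) had the lowest folds after Psmb6. By median of ratios Psmb2 (0.659) and Psma2 (0.664) passed it too, where 11.6% of features were lower. On the CPM scale in PAN against healthy, the alpha subunits Psma3 (1.29), Psma5 (1.23) and Psma1 (1.22) lay above Psma7 (1.00) and Psma2 (0.952), and the beta subunits Psmb3 (1.23) above Psmb1 (0.981). Psma5 at 0.783 was the core gene with the lowest fold in PAN_LS-FMD against PAN, with 105.1 CPM in PAN_LS-FMD and 134.1 in PAN. Of the 14 measured core genes, 9 lay above 1 in PAN over healthy, 3 in PAN_LS-FMD over PAN, 6 in PAN_LS-FMD over healthy and 5 in healthy_LS-FMD over healthy on the CPM scale. By median of ratios 12 of 14 lay above 1 in PAN_LS-FMD over PAN and 0 of 14 in each comparison with healthy, so the side on which most core genes fell depends on the scale.

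Among the ATPases that form the unfolding ring, Psmc3 differed most. It had 249.5 CPM in PAN, 201.0 in PAN_LS-FMD, 199.5 in healthy_LS-FMD and 173.9 in healthy, and PAN was the highest section. PAN over healthy was 1.43 (1.36 to 1.51) in the cortex and 1.501 over the whole section, where it passed the fold together with 45% of features, and PAN_LS-FMD over PAN was 0.806. By median of ratios the first was 1.08. The other 5 ATPases lay between 1.12 (Psmc1) and 1.17 (Psmc6) in PAN over healthy. Psmc1 at 1.16 was among the highest folds of healthy_LS-FMD over healthy, and Psmc2 at 1.17 among those of PAN_LS-FMD over healthy.

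The non-ATPase genes varied in both directions. Psmd2, a scaffold of the base, had 233.9 CPM in PAN, 198.8 in PAN_LS-FMD, 200.7 in healthy_LS-FMD and 197.7 in healthy, and the other scaffold gene, Psmd1, had 59.7, 56.4, 54.0 and 61.4. Psmd4, a ubiquitin receptor, had 75.6, 64.2, 58.5 and 64.6 CPM. Psmd14, the protease that removes ubiquitin from substrates, had 80.3, 61.3, 71.5 and 65.3 CPM, so that PAN was highest for these 2. Psmd11, a lid subunit that helps join lid and core, had 30.3, 30.1, 25.3 and 30.8 CPM.

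Psmd3, another lid subunit, had its highest levels in PAN_LS-FMD and healthy, with 141.0 CPM in PAN, 160.5 in PAN_LS-FMD, 143.3 in healthy_LS-FMD and 157.1 in healthy. Its PAN_LS-FMD over PAN fold of 1.14 (1.07 to 1.22) was the highest of the 38 genes in that comparison. The lid gene Psmd7 (113.1, 107.0, 103.5 and 86.9 CPM) and the base chaperone Psmd5 (58.1, 54.7, 49.6 and 43.3 CPM) were lowest in healthy. For Psmd12 and Psmd6, also of the lid, PAN_LS-FMD over PAN was 1.06 and 1.04. The base chaperone Psmd9 had 21.9, 21.5, 25.5 and 23.7 CPM, and its intervals against healthy include 1 in PAN and in PAN_LS-FMD (0.792 to 1.08 and 0.776 to 1.06). Psmc3ip had 14.5, 10.5, 13.4 and 10.8 CPM.

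**Figure D3:**
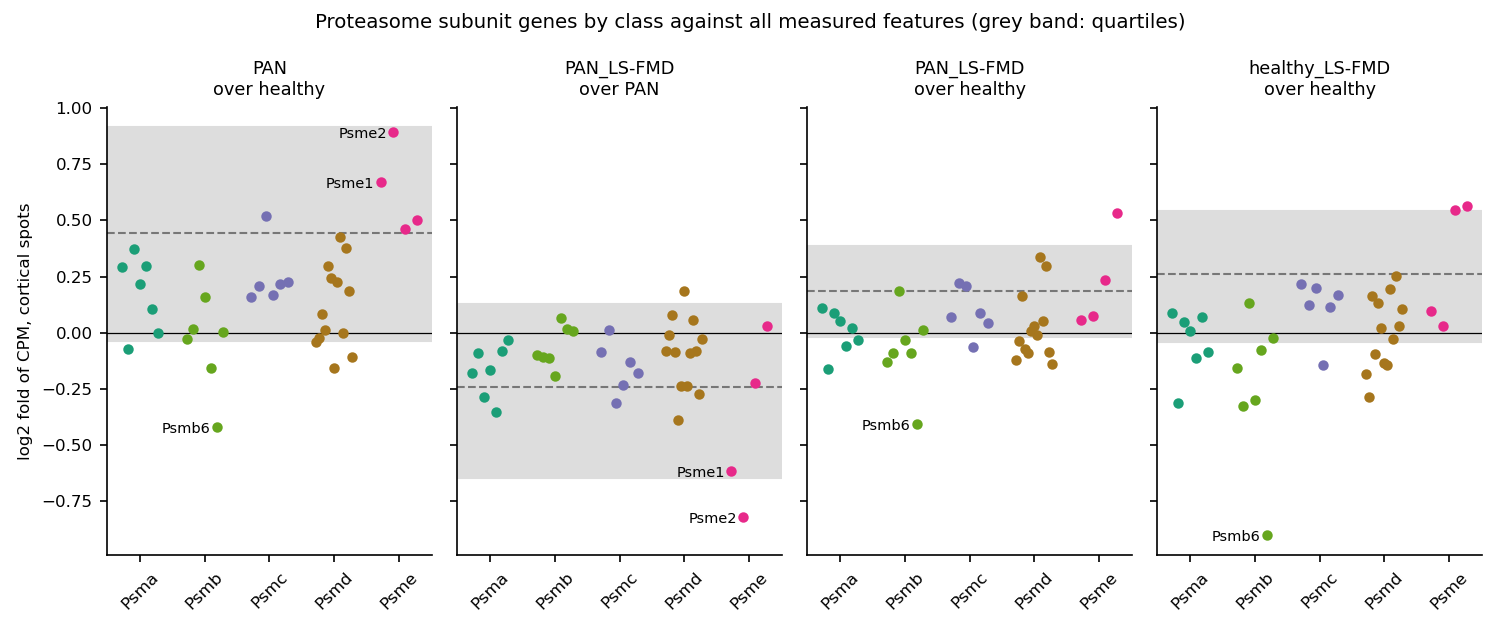
Log2 fold of CPM in cortical spots (vertical axis) for each measured subunit gene except Psmc3ip, grouped by symbol class, in the 4 comparisons, with the all-feature median as a dashed line and the all-feature quartiles as a grey band. Psme1 and Psme2 stand above the other classes in PAN over healthy (0.67 and 0.89) and below them in PAN_LS-FMD over PAN (-0.62 and -0.82), and Psmb6 is the lowest point in each comparison with healthy.

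Across all 38 genes, PAN was the highest section for 22 and healthy the lowest for 18. The median ratio of the highest to the lowest section was 1.22. At 1.2-fold in place of 1.5-fold, 14 of the 38 passed in PAN over healthy, 8 in PAN_LS-FMD over PAN, 4 in PAN_LS-FMD over healthy and 7 in healthy_LS-FMD over healthy, where 73.6%, 62%, 40.9% and 53.8% of all features did. By role, the median log2 fold in PAN over healthy was 0.061 for the measured core genes, 0.18 for the regulatory particle and 0.59 for the 4 activators, beside 0.44 over all features, and in PAN_LS-FMD over PAN it was -0.10, -0.09 and -0.42, beside -0.24. In PAN over healthy, 28 genes lay above 1 and 10 below it on the CPM scale, and 7 above and 31 below by median of ratios. In PAN_LS-FMD over PAN the split was 8 above and 30 below, and 26 and 12 by median of ratios. Set against the core of the same section, which is free of either scale, 25 lay above and 13 below in PAN over healthy, and 19 lay on each side in PAN_LS-FMD over PAN. Relative to the core, Psme2 (1.76) and Psme1 (1.51) were past 1.5-fold in PAN over healthy, where 36.3% of features were higher. In PAN_LS-FMD over PAN, Psme2 alone (0.610) was past it, where 22.6% were lower. In healthy_LS-FMD over healthy, Psme4 (1.58) and Psme3 (1.57) were higher, as were 28.2% of features, and Psmb6 (0.575) was lower, as were 4.29%.

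The outer stripe, the zone of the S3 proximal tubule, had smaller differences of Psme1 and Psme2 on the CPM scale. Its pools do not hold the same clusters. A cluster with Adgrv1, LOC361914 and Slc7a12 among its leading genes was outer stripe in healthy (389 spots) and healthy_LS-FMD (285 spots). In PAN_LS-FMD such a cluster was blood-rich (164 spots). A cluster with Cyp2c24, Slc5a10 and F2 was outer stripe in healthy (242 spots) but medullary in PAN_LS-FMD (154 spots). Psme1 had 378.0 CPM in PAN, 271.0 in PAN_LS-FMD, 274.9 in healthy_LS-FMD and 298.9 in healthy, and Psme2 144.9, 85.5, 88.2 and 98.9. PAN over healthy was 1.26 for Psme1 and 1.47 for Psme2, and no subunit gene passed the fold, where 50.8% of features did. By median of ratios they were 0.9396 and 1.09, so that Psme1 lay below 1, and Psma2 (0.628), Psmb5 (0.587) and Psmb6 (0.506) were past the fold, where 18.8% of features were lower. Psme2 at 0.590 was the only gene past it in PAN_LS-FMD against PAN, where 39.5% of features were lower. With size factors Psme2 was 0.775 and not past it, while Psmd11 (1.66) and Psmd1 (1.56) were higher past it, as were 17.8% of features. Psmb6 had 103.2, 113.9, 93.0 and 151.7 CPM, again highest in healthy, and at 0.613 it was the only gene past the fold in healthy_LS-FMD against healthy, where 4.63% were lower; by median of ratios it was 0.523, with 9.52% of features lower. Core over regulatory particle was 1.09, 1.19, 1.12 and 1.252, and healthy was again highest. Summed levels in medullary spots were 5918, 5455, 5734 and 5427 CPM and in blood-rich spots 5854, 5332, 4867 and 4392 CPM. These are given as levels only, since clusters of both zones were led by genes of other lists.

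Clusters led by the same marker list were also pooled into 6 regions present in every section. A region need not hold the same clusters in each section. In PAN the distal convoluted and connecting tubule region was the cluster with Klk1c9, Calb1 and Slc26a4. In healthy it also held a cluster with Gp2 and Slc12a3, and in both dieted sections only a cluster of that kind. The principal cell cluster of PAN_LS-FMD also had Slc12a1, Cldn16 and Tmem207 among its leading genes. The sum over all subunit genes ranged from 5515 to 5955 CPM over the regions of PAN, 5037 to 5486 in PAN_LS-FMD, 4969 to 5670 in healthy_LS-FMD and 4868 to 5518 in healthy. PAN was above healthy in 6 of 6 regions (1.06 to 1.17) and PAN_LS-FMD below PAN in 6 of 6 (0.898 to 0.948), on the CPM scale, whose direction turns in the cortex with size factors. The proximal S1 and S2 region was the lowest of the 6 in PAN, PAN_LS-FMD and healthy_LS-FMD, and the distal convoluted and connecting tubule region in healthy.

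Psme1 and Psme2 summed to 468 to 746 CPM over the regions of PAN, 357 to 444 in PAN_LS-FMD, 349 to 577 in healthy_LS-FMD and 334 to 487 in healthy. In PAN they were lowest in the proximal S3 region (468 CPM, against 357, 349 and 378 in the other sections) and highest in the principal cell region (746, against 399, 577 and 487). On the CPM scale, PAN over healthy was 1.24 to 1.66 and PAN_LS-FMD over PAN 0.534 to 0.762, each in the same direction in 6 of 6 regions. The 0.534 was in the principal cell region, whose clusters differ between sections. Size factors were not computed for regions, and in the outer stripe they put Psme1 below 1 in PAN over healthy. In the podocyte region, which held 40 spots in PAN, 119 in PAN_LS-FMD, 60 in healthy_LS-FMD and 138 in healthy, they summed to 606, 444, 444 and 428 CPM. On the CPM scale Psmb6 was below healthy in 6 of 6 regions in PAN (0.655 to 0.819), PAN_LS-FMD (0.622 to 0.875) and healthy_LS-FMD (0.365 to 0.752). Psme4 on this scale was above healthy in 6 of 6 regions in PAN (1.29 to 2.02), PAN_LS-FMD (1.07 to 1.66) and healthy_LS-FMD (1.29 to 1.79).

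**Figure D4:**
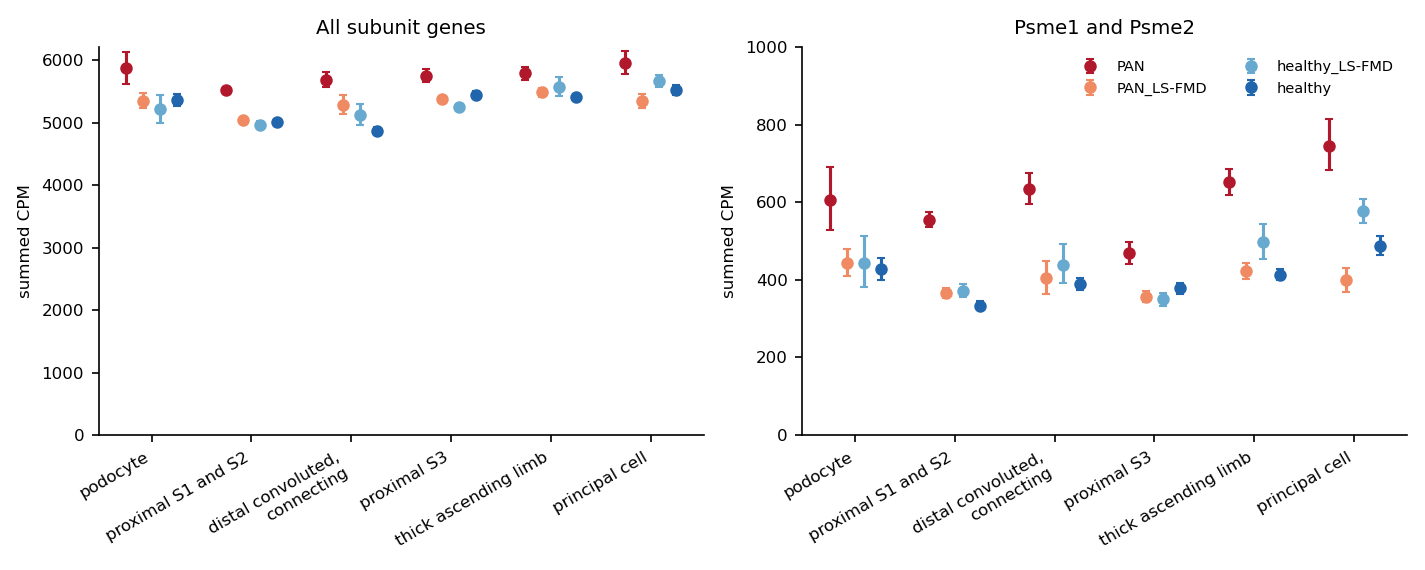
Summed CPM (vertical axes, from 0) of all subunit genes on the left and of Psme1 and Psme2 on the right in 6 regions named by their marker list, 1 point per section with 95% counting intervals. PAN was the highest section in each region in both panels.

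The 54 clusters of the 4 sections showed how evenly the genes were spread. The highest cluster was 1.12 times the lowest in PAN, 1.12 in PAN_LS-FMD, 1.31 in healthy_LS-FMD and 1.37 in healthy, where the lowest, at 4055 CPM, was led by haemoglobin genes. Within each section, clusters with more mitochondrially encoded RNA had a lower sum: Spearman's rho was -0.73 in PAN, -0.48 in PAN_LS-FMD, -0.64 in healthy_LS-FMD and -0.74 in healthy (12 to 14 clusters each). Such shares are not independent, since both are parts of the same total. With mitochondrial and haemoglobin UMIs left out of the total, the clusters still ranged from 5714 to 6247 CPM in PAN, 5101 to 5702 in PAN_LS-FMD, 4934 to 6298 in healthy_LS-FMD and 5214 to 5833 in healthy.

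Psme1 and Psme2 followed the induced subunits from cluster to cluster. The rho of their sums was 0.78 in PAN, 0.71 in PAN_LS-FMD, 0.71 in healthy_LS-FMD and 0.82 in healthy. With the summed macrophage markers it was 0.74, 0.51, 0.60 and 0.74, with the T cell markers 0.62, 0.55, 0.40 and 0.64, and with the B cell markers 0.71, 0.32, -0.76 and 0.27. For the sum of all subunit genes the rho with the induced subunits was 0.64, 0.042, 0.52 and 0.18. With the clusters' median UMIs per spot, the rho of Psme1 and Psme2 was -0.66, -0.24, -0.71 and -0.31. Psme1 and Psme2 reached 758 CPM in the highest PAN cluster, 456 in PAN_LS-FMD, 688 in healthy_LS-FMD and 604 in healthy, and the lowest PAN cluster had 468. The induced subunits ranged from 149 to 380 CPM over PAN clusters, 55.6 to 139 in PAN_LS-FMD, 42.0 to 150 in healthy_LS-FMD and 57.7 to 172 in healthy. The clusters of a section share its library and depth, so these correlations are descriptions.

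**Figure D5:**
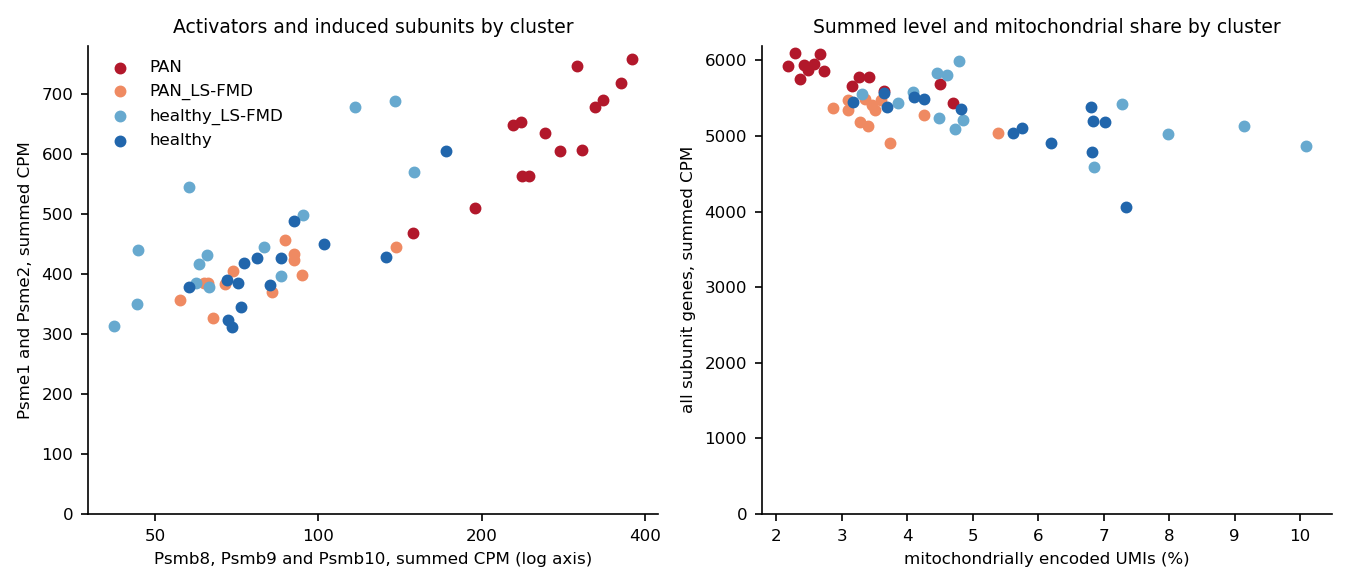
Each point is 1 cluster of 1 section: on the left the summed CPM of Psme1 and Psme2 against that of Psmb8, Psmb9 and Psmb10 (log horizontal axis), on the right the summed CPM of all subunit genes against the percentage of mitochondrially encoded UMIs. PAN clusters lie toward the upper right of the left panel, with 468 to 758 CPM for Psme1 and Psme2.

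Single genes followed the sum of all subunit genes to different degrees over the 54 clusters, with levels centred within each section. Psmb6 (0.78), Psmd13 (0.77) and Psmb1 (0.76) had the highest rho, and Psmd11 (-0.18), Psme3 (-0.047) and Psma1 (-0.0077) the lowest, with each gene a part of its own sum. The core and regulatory particle sums correlated at 0.72. Among the 6540 features with a mean of at least 20 CPM, the 10 non-members most like the sum were Slc38a2 (0.88), H2afv (0.86), Cct7 (0.86), Maea (0.84), Eef2 (0.83), LOC100360781 (0.83), Mif4gd (0.83), Aimp2 (0.82), Rps24 (0.81) and Ost4 (0.81), where the median feature had 0.24 and the median member 0.41. Slc38a2 is an amino acid transporter, Cct7 a subunit of the cytosolic chaperonin and Eef2 the elongation factor of translation.

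Other genes of the pathway were taken as lists. Of 6 measured assembly chaperones, Pomp, which matures the core, was the only one past the fold in each comparison with healthy: it had 78.8 CPM in PAN, 77.2 in PAN_LS-FMD, 91.6 in healthy_LS-FMD and 46.2 in healthy. Its folds over healthy were 1.71, 1.67 and 1.98 on the CPM scale, where 40.7%, 10.3% and 20.9% of all features were higher past the fold. By median of ratios they were 1.28, 1.45 and 1.64, the last alone past the fold, where 8% of features were higher. In PAN_LS-FMD over PAN none of the 6 passed. The median log2 fold of the 6 was 0.042 in PAN over healthy and -0.10 in healthy_LS-FMD over healthy, beside 0.44 and 0.26 over all features. Of 13 proteasome-bound and shuttle factors, 2 were higher in PAN than in healthy, the shuttle Rad23b (1.52) and Zfand5 (1.501), where 40.7% of features were. By median of ratios neither of these 2 passed, at 1.14 and 1.13. In PAN_LS-FMD against PAN none of the 13 passed. Ddi2, a protease that activates Nfe2l1, had 97.5 CPM in PAN, 124.1 in PAN_LS-FMD, 145.0 in healthy_LS-FMD and 79.3 in healthy, and was past the fold in PAN_LS-FMD (1.57) and healthy_LS-FMD (1.83) over healthy, by median of ratios in healthy_LS-FMD alone (1.51, against 1.36). Zfand5 (1.58) and Ubqln4 (1.58) were the other 2 past it in healthy_LS-FMD, at 1.30 each by median of ratios. On the CPM scale 20.9% of features were higher there, and 10.3% in PAN_LS-FMD over healthy.

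Uba6, an enzyme that activates ubiquitin, was lower in PAN_LS-FMD than in PAN (0.656, and 0.757 by median of ratios, which does not pass). On the CPM scale 27% of features were lower past the fold there. Rps27a, a ubiquitin fused to a ribosomal protein, was lower in healthy_LS-FMD than in healthy (0.398, and 0.328 by median of ratios). In that comparison 5.42% of features were lower on the CPM scale and 11.6% by median of ratios. Of 7 measured genes of p97 and its cofactors, which extract substrates for the proteasome, Ufd1l alone passed, in healthy_LS-FMD over healthy (1.60). There 20.9% of all features were higher past the fold. By median of ratios Ufd1l was 1.32, which does not pass.

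Of 5 measured transcription factors tied to proteasome genes, 4 were past the fold higher in PAN than in healthy, as were 40.7% of all features, with a median log2 fold of 0.90 beside 0.44 over all features. Stat3 had 171.0 CPM in PAN, 90.7 in PAN_LS-FMD, 100.2 in healthy_LS-FMD and 74.0 in healthy, and PAN over healthy was 2.31. Nfe2l2, the antioxidant response factor, had 176.6, 121.2, 156.6 and 110.4 CPM, and PAN over healthy was 1.60. Maff was at 3.15 and Mafg, named after its values were seen, at 1.86. With size factors Maff (2.37) and Stat3 (1.74) stayed past it, where 22.1% of features were higher, and Mafg (1.402) and Nfe2l2 (1.203) did not. In PAN_LS-FMD against PAN, Stat3 (0.530), Maff (0.560) and Mafg (0.609) were lower past the fold, as were 27% of features. By median of ratios they were 0.612, 0.646 and 0.703, the last not past it, where 19.7% of features were lower. Nfe2l1, the factor that restores proteasome genes when the proteasome is inhibited, had 5.01, 5.58, 6.33 and 5.15 CPM, and no comparison passed.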

How the data were processed

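The authors deposited raw count matrices, whole-number UMI counts per feature and spot with no normalisation, made per the file headers with Space Ranger 2.0.1 (healthy) and 1.2.1 (the other 3 sections); genome build and annotation are not given in the sources used here. The deposited barcode and feature lists name spots and genes, and 3906 barcodes occur in any section and 1221 in all 4, as slides carry the same set. Spots under 500 UMIs were left out (2 to 5 per section). Each section was clustered alone without the subunit genes (scanpy 1.11.5: 10000 per spot, log, 2000 variable genes, 30 components, 15 neighbours, Leiden resolution 1), and each cluster took the zone of its highest centred marker score, from log2(CPM + 10), among the 8 lists that mark a zone; immune, matrix and injury lists gave no zone. No doublet caller was run on spots.

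UMIs were summed over spots and divided by the total. A feature was measured at 50 UMIs over both sections and past the fold at 1.5-fold with an exact 95% Poisson interval excluding 1; intervals cover counting error only. A count of 3 was worth 0.159 to 0.463 CPM in the cortical sums. With 1 section per group no test between animals was possible. A run on simulated Poisson counts, which hold no spread between sections or animals, checked the call for counting error only.

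The members and lists were chosen with earlier results of these data known. Genes named were Psmb5, Psmb6, Psmb7, Psma8, Psmb11, the Psme genes, Psmd1, Psmd2, Psmd4, Psmd11 and Psmd14, the 5 highest and 5 lowest folds per comparison among members with at least 200 UMIs, members past the fold, up to 4 genes per list, and the 10 features most like the sum; Psma1, Psma3, Psma7, Psmb1, Psmb3, Psmc6, Psmd13, Mafg and Nfe2l1 were added after their values were seen. Alternatives were other zones, clusterings, denominators, spot minima, folds and UMI minima. The strict cortex, the cortex without distal convoluted and connecting tubule clusters, the core as total, the regions and median of ratios for lists and the outer stripe were chosen after seeing the data. Promoters came from RefSeq. A gene of the ubiquitin list is not reported here.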

Additional observations from a re-analysis of the deposited data

Results flagged for a closer look

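Psme1-ps1, a pseudogene symbol that the rule leaves out, had 15 UMIs over all spots of the healthy section, above the 3 that a count of 0 allows, and 1 UMI in each of the PAN, PAN_LS-FMD and healthy_LS-FMD sections. It was looked at because it lies outside the genes compared. Against 17394 UMIs of Psme1 in the healthy section it is small.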

How the results depend on the processing

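No paired analysis was possible because each group had 1 section and the labels give no replicate numbers. With median-of-ratios size factors, the summed log2 fold of the members was -0.22 in PAN against healthy (0.19 with total UMIs), 0.042 in PAN_LS-FMD against PAN (-0.16), -0.18 in PAN_LS-FMD against healthy (0.027) and -0.28 in healthy_LS-FMD against healthy (0.0011), and the numbers of members past the fold were 1, 1, 1 and 3 against 2, 2, 0 and 1. At 1.2-fold these numbers were 14, 8, 4 and 7, where 73.6, 62, 40.9 and 53.8% of all features passed. The summed log2 fold of PAN against healthy was 0.15 over all spots, 0.12 at Leiden resolution 0.5, 0.17 with zones given to single spots, 0.15 without mitochondrial and haemoglobin UMIs and 0.15 in strict cortex. With the core's UMIs as the total, a setting added after seeing the data like the strict cortex, the 4 sums were 0.11, -0.059, 0.056 and 0.10, with 2, 1, 0 and 3 members past the fold. The sum of PAN_LS-FMD against PAN was -0.13 over all spots, -0.12 at resolution 0.5 and -0.13 in strict cortex, with 1 member past the fold in each. Without the cortical clusters of the distal convoluted and connecting tubule list, another setting added after seeing the data, the 4 sums were 0.13, -0.12, 0.0044 and -0.022, with 1 member past the fold in PAN_LS-FMD against PAN. PAN_LS-FMD against healthy gave -0.0094 at resolution 0.5, -0.022 without mitochondrial and haemoglobin UMIs and 0.012 with single-spot zones, and healthy_LS-FMD against healthy gave 0.039 over all spots. Core over regulatory particle over all spots was 1.18 in PAN_LS-FMD, 1.13 in healthy_LS-FMD and 1.254 in healthy; healthy was the highest section under each of the 7 other zone, spot and member settings, and PAN in place of healthy_LS-FMD was the lowest over all spots (1.121). Psme1 and Psme2 over core was highest in PAN (0.221 to 0.231) and lowest in healthy under each of those settings. The causes of these shifts were not tested. Of 116 sums, counts of members past the fold and core ratios, 75 stayed alike, 36 moved and 5 sums turned direction. Of 667 further values for named genes and ratios, 524 stayed within the counting interval, 143 left it and none past the fold turned its direction. A sum over all members could be counted as turned where its interval in the main setting excluded 1. A named gene, or Psme1 and Psme2 summed, had to be past the fold in the main setting. Other folds that changed side are among those that stayed alike or moved. Depth limited healthy_LS-FMD most, whose cortical spots held the fewest UMIs, 6475983 against 18850332 in healthy.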
